A study of Zea mays with 10 samples.

Results

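The genes elfa2 (GeneID:100037748), elfa3 (GeneID:542620) and GOS2 (GeneID:541664) code for translation factors of maize. They are 3 of the 48174 genes counted in this series, and all 3 had enough counts to be tested. They were picked by name, with their levels in both groups already known, so the difference between the groups is described for them below and carries no test. Elongation factor 1-alpha, the product of elfa2 and elfa3, binds GTP and carries each aminoacyl-tRNA to the ribosome. GOS2 is named after a rice gene related to yeast SUI1, which codes for initiation factor 1, a small protein that helps the scanning ribosome to choose the start codon. Genes of this machinery are strongly used in the dividing and growing cells of a root tip.

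The material was the last 1 mm of primary and seminal roots of B73 maize seedlings, 3 days after germination. B73 is an inbred line. All roots stood 1 h in water and were then given 5-ethynyl uridine (EU) at 175 uM for 1 h, so both groups carry the label. EU is a uridine analog that cells build into the RNA they make, and through which that RNA can be biotinylated. In the EU nascent group (5 libraries) labelled RNA of the nuclei was pulled down on streptavidin. In the nuclear group (5 libraries) the total RNA of the nuclei was used without a pulldown. The replicates are called biological in the labels, which do not say how many seedlings went into each. Nuclear RNA holds transcripts made before the labelling hour as well as during it, and the libraries measure relative amounts within each RNA sample. In such bulk samples fewer cells of a type and less RNA per cell cannot be told apart.

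The EU nascent libraries held between 2391209 and 5770915 assigned counts, and the nuclear libraries between 1323450 (replicate 1) and 20397606 (replicate 4). Of the markers looked for, the DNA replication genes MCM6 and PCNA, which mark dividing cells, were present, at 74.2 ± 6.28 and 46.6 ± 5.23 CPM in EU nascent against 98.5 ± 10.5 and 38.0 ± 2.92 CPM in nuclear (n = 5 each, SD). CPM are counts scaled to a common library size (scaled CPM), after trimmed-mean scaling between libraries. Summed over the 6 tested meristem markers, the level was 246 to 299 CPM in EU nascent and 252 to 324 CPM in nuclear libraries. Leaf genes were nearly absent, with 2 counts for rbcS, 6 for CAB1 and 0 for cab-m9 over all 10 libraries together. The exception was C4ppdkZm1, at 616 ± 23.1 CPM in EU nascent and 476 ± 24.3 CPM in nuclear, a gene that also has a transcript for use outside photosynthesis. The stem cell gene wox5B had 48 counts in all and was not tested.

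Both elongation factor genes held a smaller share of the captured RNA than of the nuclear RNA, and the initiation factor gene held a larger one. Relative to nuclear, EU nascent had 40.8% of elfa3, 48.7% of elfa2 and 1.77 times as much GOS2. In scaled CPM, explained above, the groups did not overlap for 3 of the 3 genes. For elfa2 this did not hold on library totals alone. Over all tested genes 24.8% had groups that did not overlap, and by the edgeR test 40.9% differed. Since these genes were chosen on this contrast, nothing is read from that count.

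elfa3 had 91.3, 85.6, 94.0, 90.4 and 86.8 CPM in EU nascent replicates 1 to 5, against 138, 215, 209, 245 and 274 CPM in nuclear replicates 1 to 5. Every nuclear library stood above every EU nascent library, and nuclear replicate 1 was the lowest of its group. The means were 89.6 ± 3.44 CPM in EU nascent and 216 ± 50.9 CPM in nuclear (n = 5 each, SD), and the log2 fold change was -1.29 ± 0.12 (SE). Of 21048 tested genes, 394 had a lower log2 fold change, or 1.87%.

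elfa2 had 81.6, 87.2, 79.3, 92.1 and 91.1 CPM in EU nascent replicates 1 to 5, against 104, 179, 144, 209 and 232 CPM in nuclear replicates 1 to 5. In scaled CPM the groups again stood apart, with nuclear replicate 1 nearest to the EU nascent libraries and nuclear replicate 5 the farthest. The means were 86.2 ± 5.65 CPM in EU nascent and 174 ± 50.9 CPM in nuclear (n = 5 each, SD), with a log2 fold change of -1.04 ± 0.15 (SE). A lower log2 fold change was found for 655 tested genes, or 3.11%.

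GOS2 had 194, 201, 151, 214 and 220 CPM in EU nascent replicates 1 to 5, against 108, 119, 79.6, 127 and 114 CPM in nuclear replicates 1 to 5. All EU nascent libraries were above all nuclear ones, and replicate 3 was the lowest library in both groups. The means were 196 ± 26.9 CPM in EU nascent and 110 ± 18.2 CPM in nuclear (n = 5 each, SD), and the log2 fold change was 0.82 ± 0.11 (SE). A higher log2 fold change was found for 756 tested genes, or 3.59%.

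**Figure D1:**
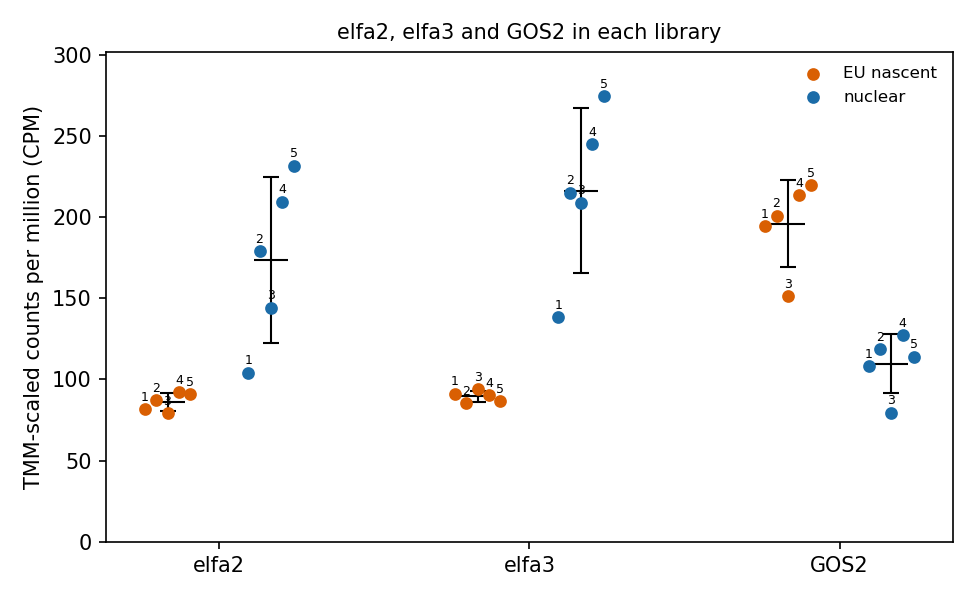
Scaled CPM of elfa2, elfa3 and GOS2 in each library. Points are libraries, numbered by replicate, and bars are the mean and SD of 5 libraries. The EU nascent values of elfa2 and elfa3 reach at most 94.0 CPM and their nuclear values start at 104 CPM, while all EU nascent values of GOS2 lie above its nuclear ones.

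The spread between libraries differed between the groups for the elongation factor genes. For elfa3 the coefficient of variation was 3.83% in EU nascent and 23.5% in nuclear, and counting error alone, from 225 to 546 counts per EU nascent library and 170 to 4688 per nuclear library, would give 5.49% and 4.68%. For elfa2 it was 6.55% in EU nascent and 29.3% in nuclear, with counting errors of 5.68% and 5.41%. The spread of both genes in EU nascent was thus near counting error, and their spread in nuclear was larger. The highest nuclear library held 1.98 times the elfa3 level and 2.22 times the elfa2 level of the lowest, and in EU nascent these ratios were 1.10 and 1.16. Nuclear replicate 1 carried much of this. Without it the nuclear coefficient of variation was 12.8% for elfa3 and 19.9% for elfa2, and the highest over the lowest level was 1.31 and 1.61. GOS2 varied by similar amounts in both groups, with 13.7% in EU nascent and 16.6% in nuclear, above its counting errors of 3.82% and 6.27%. Without replicate 3 these fell to 5.56% in EU nascent and 6.92% in nuclear, near the counting errors of the libraries left, 3.45% and 5.44%.

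Same-numbered libraries deviated together over all genes, and they can be set side by side. GOS2 was 1.80, 1.69, 1.90, 1.68 and 1.93 times as high in EU nascent as in the nuclear library with the same number, for numbers 1 to 5. This ratio varied little, although the levels of GOS2 in replicate 3 were low in both groups. For elfa3 the EU nascent level was 0.660, 0.398, 0.450, 0.369 and 0.316 of the nuclear level with the same number. For elfa2 it was 0.784, 0.487, 0.550, 0.440 and 0.393. Both genes kept the same order over the 5 numbers, with the smallest difference at number 1 and the largest at number 5. Nuclear replicate 1 was the library with the fewest counts, and it had the lowest level of elfa2, elfa3, elfa5, elfa7 and EF1A in its group. The part of depth in this was not tested. Without nuclear replicate 1 the log2 fold changes were -1.40 for elfa3 and -1.16 for elfa2.

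The elfa2 and elfa3 genes follow each other along the chromosome, with a single annotated pseudogene, LOC103630196, between them in the RefSeq gene table. That pseudogene had no count in any library. Near-identical genes can share reads. Counts that are not whole, a sign that reads were split over several genes, were seen for elfa2 in 6 libraries and for elfa3 in 7, among them all 6 of elfa2. How the reads divide between both genes is therefore uncertain.

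The ratio of elfa2 to elfa3 counts within a library does not depend on the scaling. It was 0.895, 1.02, 0.844, 1.02 and 1.05 in EU nascent replicates 1 to 5, and 0.752, 0.833, 0.690, 0.854 and 0.844 in nuclear replicates 1 to 5. EU nascent libraries thus held about as many counts of one gene as of the other, and nuclear libraries held more of elfa3. The ratio averaged 0.965 ± 0.090 in EU nascent and 0.795 ± 0.071 in nuclear (n = 5 each, SD). It was higher in EU nascent for all 5 replicate numbers, but the groups overlapped, because EU nascent replicate 3 lay below nuclear replicate 4.

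Besides elfa2 and elfa3, 3 elongation factor 1-alpha genes have a name in the gene table: elfa5 (GeneID:542555), elfa7 (GeneID:103635498, also listed as elfa8) and EF1A (GeneID:542581). They were not used to choose elfa2 and elfa3, but they were listed with earlier results of these data known. Their calls are therefore no independent evidence of a direction. Fractional counts were seen for elfa7 and EF1A in 1 library each and for elfa5 in none. In the edgeR quasi-likelihood fit over all tested genes, with p-values adjusted after Benjamini and Hochberg, 2 of the 3 fell and 0 rose, where 21.1% of all tested genes fell and 19.8% rose. The log2 fold change of elfa7 was -0.73 ± 0.11 (SE, edgeR adjusted p = 5.32e-05, n = 5 per group), with 70.3 ± 7.02 CPM in EU nascent and 113 ± 21.9 CPM in nuclear (SD). EF1A had -0.50 ± 0.12 (edgeR adjusted p = 0.00243), with 193 ± 12.9 CPM in EU nascent and 269 ± 56.4 CPM in nuclear. elfa5 had -0.23 ± 0.11 and did not pass (edgeR adjusted p = 0.11), with 127 ± 9.13 CPM in EU nascent and 146 ± 29.4 CPM in nuclear. The groups of all 3 genes overlapped, in each case at nuclear replicate 1. Each log2 fold change was smaller in size than those of elfa2 and elfa3, which were chosen with their values known. elfa5 passed with the replicate number as a block (-0.23, edgeR adjusted p = 0.0164) and without nuclear replicate 1 (-0.32, 0.0046), and over its 19 alternatives the adjusted p ranged from 0.000788 to 0.709.

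The order of these 5 genes was read from CPM per kb of the gene's span in the RefSeq table, introns included, since the counted length of each gene is not known here. In EU nascent, EF1A was the highest with 61.4 ± 4.11 CPM per kb, followed by elfa5 with 44.8 ± 3.23, elfa3 with 28.4 ± 1.09, elfa2 with 27.7 ± 1.82 and elfa7 with 13.7 ± 1.37 (SD, n = 5). elfa3 and elfa2 differed by less than their spread there. In nuclear, EF1A had 85.9 ± 18.0 CPM per kb, elfa3 68.5 ± 16.1, elfa2 55.9 ± 16.4, elfa5 51.5 ± 10.4 and elfa7 22.1 ± 4.28 (SD, n = 5). There EF1A and elfa3, elfa3 and elfa2, and elfa2 and elfa5 differed by less than their spread. Within single libraries, elfa3 was above elfa5 in 0 of 5 EU nascent libraries and in 5 of 5 nuclear libraries. elfa3 was above elfa2 in all 5 nuclear libraries, and elfa2 was above elfa3 in 3 of 5 EU nascent libraries. In nuclear libraries EF1A was above elfa3 in 5 of 5, and elfa2 was above elfa5 in 3 of 5.

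**Figure D2:**
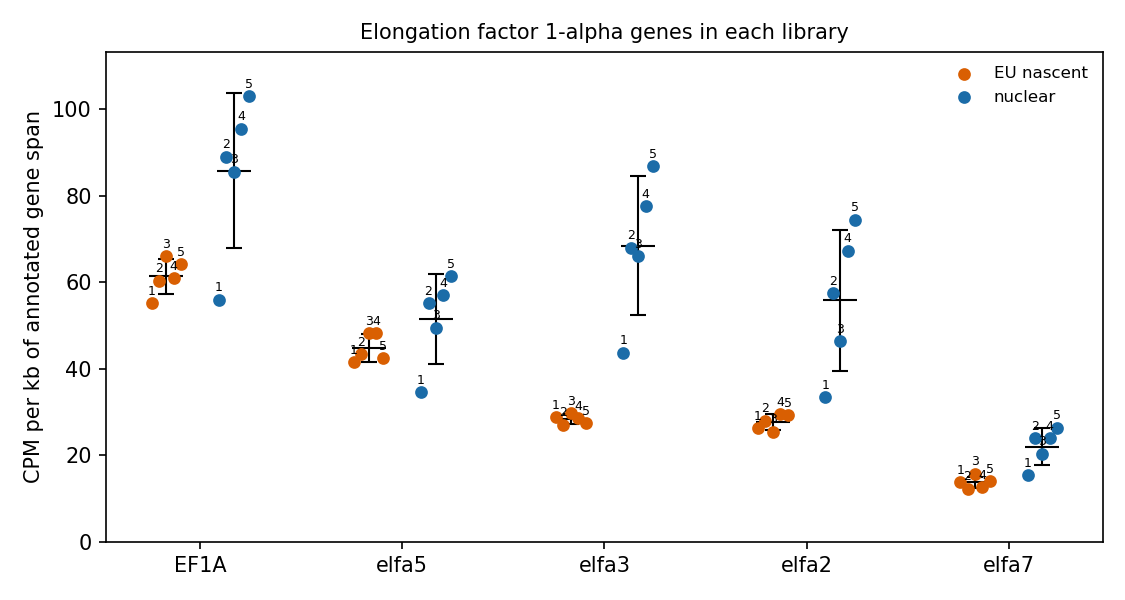
Levels of 5 elongation factor 1-alpha genes in CPM per kb of annotated gene span. Points are libraries, numbered by replicate, and bars are the mean and SD of 5 libraries. elfa5 stands above elfa3 and elfa2 in all EU nascent libraries, and below elfa3 in all nuclear libraries.

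Adding the 5 genes together removes the question of how reads were divided among them, as far as they were shared within this set. The sum was still not whole in EU nascent replicate 1 (1315.833 counts), nuclear replicate 2 (4650.167) and nuclear replicate 5 (4561.5). That is a sign that some reads were also split with genes outside the set. As 1 feature the 5 genes had 565 ± 24.7 CPM in EU nascent and 918 ± 207 CPM in nuclear (n = 5 each, SD). The log2 fold change was -0.70 ± 0.12 (SE), given without a test because elfa2 and elfa3 are part of the sum. The ranges were 534 to 597 CPM in EU nascent and 594 to 1139 CPM in nuclear, so the groups met at nuclear replicate 1. elfa2 and elfa3 made up 31.1% ± 1.27 of the counts of the 5 genes in EU nascent and 42.2% ± 1.78 in nuclear. The share lay between 29.0% and 32.4% in EU nascent libraries and between 40.7% and 44.5% in nuclear ones. Nuclear replicate 1, with 40.7%, was the lowest of its group and still above every EU nascent library. Because elfa2 and elfa3 were chosen on this contrast, nothing is read from this split.

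GOS2 lies inside the span of another protein-coding gene, LOC100381808, in the RefSeq table. The files and labels do not say whether counting used the strand, so reads of both genes may not be told apart. LOC100381808 had 150, 139, 127, 113 and 155 CPM in EU nascent replicates 1 to 5, and 164, 163, 157, 125 and 164 CPM in nuclear replicates 1 to 5. Its groups overlapped, and it did not pass the test (-0.17 ± 0.10, SE, n = 5 per group, edgeR adjusted p = 0.19). In the fit blocked by replicate number it was called lower (-0.17, edgeR adjusted p = 0.0203), and with library totals in place of trimmed-mean scaling it had 0.01. The range of its adjusted p over 19 alternatives was 0.0203 to 0.97. The next gene along the chromosome, LOC100383136, did not pass either (0.10 ± 0.13, edgeR adjusted p = 0.535).

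Counts of GOS2 per count of LOC100381808 were 1.29, 1.44, 1.19, 1.88 and 1.42 in EU nascent replicates 1 to 5, and 0.662, 0.729, 0.508, 1.02 and 0.695 in nuclear replicates 1 to 5. The groups did not overlap, and the replicate with the highest ratio was number 4 in both. GOS2 was chosen on this contrast, so nothing is read from that separation. GOS2 and LOC100381808 added together had 333 ± 35.0 CPM in EU nascent and 264 ± 19.1 CPM in nuclear (n = 5 each, SD), with a log2 fold change of 0.33 ± 0.09 (SE). The groups of the sum overlapped, since EU nascent replicate 3 had 279 CPM and nuclear replicate 2 had 281 CPM. GOS2 had a fractional count in 1 library, nuclear replicate 2, and LOC100381808 in none.

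**Figure D3:**
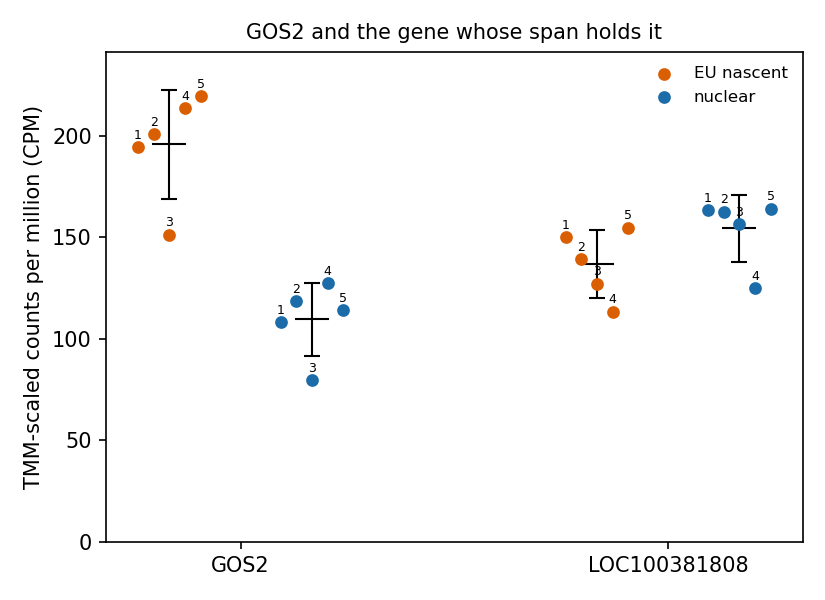
Scaled CPM of GOS2 and of LOC100381808, the gene whose annotated span holds it. Points are libraries, numbered by replicate, and bars are the mean and SD of 5 libraries. The groups stand apart for GOS2 and overlap for LOC100381808.

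Within a library, the ratio of GOS2 counts to elfa3 or elfa2 counts was higher in every EU nascent library than in any nuclear one. The count of GOS2 per count of elfa3 averaged 2.20 ± 0.36 in EU nascent and 0.531 ± 0.16 in nuclear (n = 5 each, SD), with 1.61 the lowest EU nascent value and 0.785 the highest nuclear one. Per count of elfa2 it was at least 1.91 in EU nascent libraries, and in nuclear ones it was 1.04 in replicate 1 and at most 0.663 in the others. Per kb of span, the median rank of GOS2 among 21030 genes was 666 in EU nascent and 1642 in nuclear, where rank 1 is the highest. elfa3 had a median rank of 1703 in EU nascent and 629 in nuclear, and elfa2 had 1650 in EU nascent and 746 in nuclear. These genes were chosen on this contrast, so nothing is read from the ratios or the ranks.

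**Figure D4:**
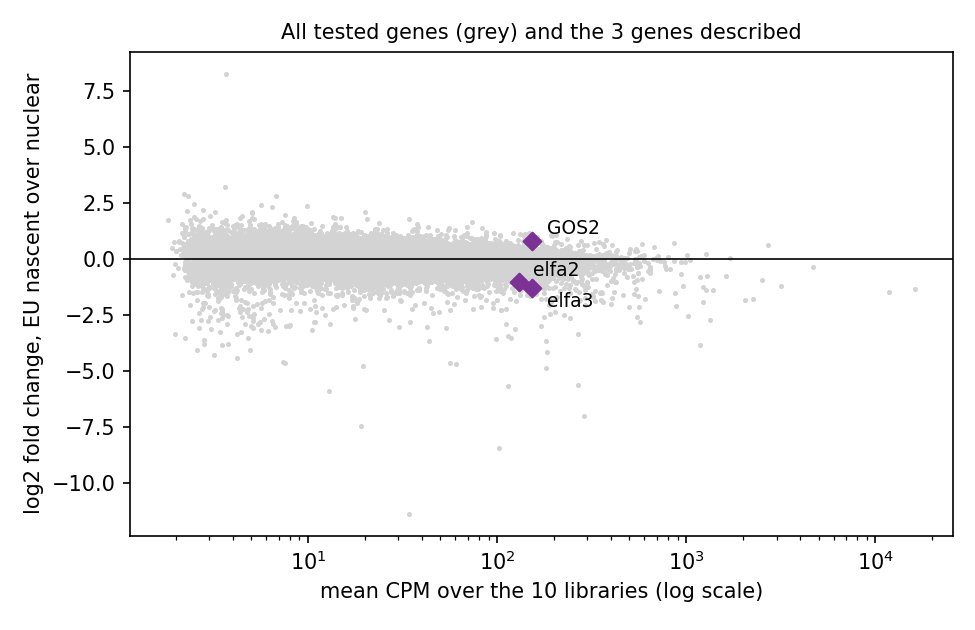
Log2 fold change of EU nascent over nuclear against the mean level in CPM (log scale) for all tested genes, in grey, with elfa2, elfa3 and GOS2 marked. The marked genes have similar mean levels and lie on opposite sides of 0, at -1.04, -1.29 and 0.82.

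Other genes of the translation machinery were set beside these 3. Of the 10 other translation factor genes with a name, 6 fell, 0 rose and 4 did not pass by edgeR. Over all tested genes 40.9% passed, with 21.1% that fell and 19.8% that rose. At an unadjusted p under 0.05 the edgeR counts were also 6 lower and 0 higher, while DESeq2 called 6 lower and 0 higher and limma-voom 7 lower and 0 higher after adjustment. The median log2 fold change of the 10 genes was -0.43, and that of all tested genes was 0.02. Earlier results for most of these genes were known when the list was written, so it is no independent evidence of a direction. Fractional counts were seen at 5 of the 10 genes, in 1 or 2 libraries each.

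Among initiation factors, eIF4A (GeneID:541649), the RNA helicase that opens the leader of the mRNA, fell most. It had 171 ± 7.25 CPM in EU nascent and 334 ± 50.7 CPM in nuclear (n = 5 each, SD), with groups that did not overlap and a log2 fold change of -0.97 ± 0.09 (SE, edgeR adjusted p = 3.54e-07). eIF3A (GeneID:542747), a subunit of the complex that holds the small ribosomal subunit, fell by 0.40 on the log2 scale (SE 0.08, edgeR adjusted p = 0.000719), with 307 ± 19.6 CPM in EU nascent and 404 ± 38.4 CPM in nuclear. The cap-binding factor gene eIFiso4E (GeneID:541708) had -0.46 ± 0.13 (edgeR adjusted p = 0.0107) and overlapping groups, and it did not pass with library totals alone (-0.28, edgeR adjusted p = 0.0915, in a range of 0.000519 to 0.0915 over 19 alternatives). The other cap-binding gene, eIF4E1 (GeneID:542608), had -0.24 ± 0.13 and did not pass (edgeR adjusted p = 0.15). eIF5 (GeneID:542450), whose product triggers GTP hydrolysis once the start codon is found, had 0.01 ± 0.10 (edgeR adjusted p = 0.948), and the sign of this value turned under several alternatives. GOS2 was the highest in log2 fold change of the 13 named translation factor genes. It was chosen with this value known, so nothing is read from its place in the order.

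Initiation factor 5A, which despite its name helps ribosomes through difficult stretches of peptide during elongation, was represented by a pair of genes. tif5A (GeneID:542601) had 80.1 ± 6.18 CPM in EU nascent and 135 ± 21.4 CPM in nuclear (n = 5 each, SD), groups that did not overlap and a log2 fold change of -0.77 ± 0.10 (SE, edgeR adjusted p = 7.84e-06). eif5a (GeneID:542537) had 90.8 ± 5.60 CPM in EU nascent and 95.5 ± 15.0 CPM in nuclear and did not pass (-0.10 ± 0.09, edgeR adjusted p = 0.403), with 0.07 when library totals alone were used. Whether the log2 fold changes of this pair differ was not tested.

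**Figure D5:**
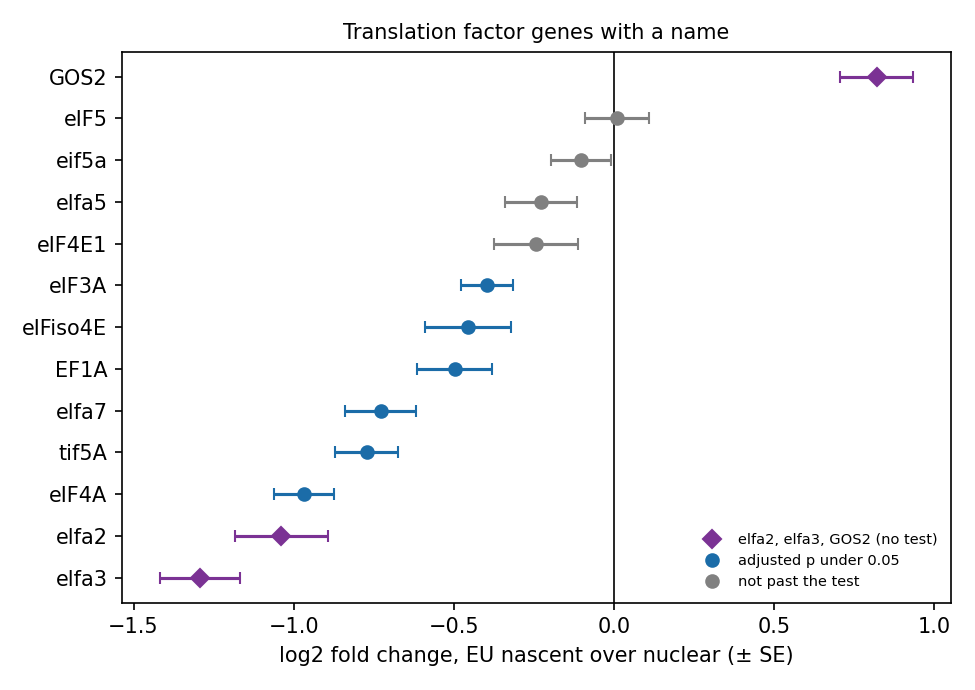
Log2 fold change of EU nascent over nuclear with its SE for the 13 translation factor genes with a name. Diamonds are elfa2, elfa3 and GOS2, which carry no test, blue points passed the edgeR test and grey points did not. elfa3 and elfa2 are the lowest and GOS2 is the highest, and these genes were chosen with their values known.

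Genes of cytosolic ribosomal proteins are the other large group of the machinery. By edgeR, 8 of 33 tested fell (24.2%, against 21.1% of all tested genes), 3 rose (9.09%, against 19.8%) and 22 did not pass. Their median log2 fold change was -0.15. With the replicate number as a block 5 rose and 8 fell, and with library totals alone 8 rose and 7 fell. By DESeq2 2 rose and 8 fell. The lowest was arpp3 (GeneID:542339), of the acidic stalk proteins that recruit elongation factors to the ribosome, with -1.30 ± 0.10 (SE, edgeR adjusted p = 3.53e-08). In CPM it stood at 76.2 ± 9.14 in EU nascent and 186 ± 25.6 in nuclear (n = 5 each, SD), with groups that did not overlap. Next was the rps4 gene with GeneID:103644306, at -0.72 ± 0.12 (edgeR adjusted p = 0.000105). The highest were L29 (GeneID:541790) with 0.74 ± 0.26 (edgeR adjusted p = 0.0285) and rps27 (GeneID:542617) with 0.51 ± 0.08 (edgeR adjusted p = 8.65e-05).

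The trimmed-mean scaling sets what counts as no difference. With it, 4166 genes were higher and 4436 lower, and with library totals alone 7386 were higher and 2765 lower, since the median of all log2 fold changes was then 0.19 in place of 0.02. With library totals elfa3 had -1.12, elfa2 -0.87 and GOS2 0.99, so each gene kept its side of 0. All changes above are relative to the bulk of tested genes.

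The genes most like each of the 3 were sought among 1734 tested genes with a name and a mean of at least 5 CPM. The measure was the root mean square difference between log2 CPM profiles over the 10 libraries, after the mean of each gene was taken off. It includes the difference between the groups, so likeness is partly a matter of having a similar log2 fold change. For elfa3 the nearest were the histone gene his2b5 (GeneID:542301) at 0.095, the HSP70 chaperone gene hsp70-4 (GeneID:103650526) at 0.112 and ATP2 (GeneID:542267) at 0.136, where the median over the genes compared was 0.686. For elfa2 they were ATP2 at 0.159, cdj2 (GeneID:100191411) at 0.160 and the helicase gene eIF4A at 0.166, with a median of 0.591. elfa2 and elfa3 stood 0.184 apart, so each had named genes nearer to it than the other. Fractional counts were seen for hsp70-4 in 9 libraries and for his2b5 in 1.

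For GOS2 the nearest was MUB6 (GeneID:100282068) at 0.095, followed by the cytochrome P450 gene CYP727A4 (GeneID:100286850) at 0.145 and mir3 (GeneID:100037824), a protein-coding gene, at 0.164, with a median of 0.525. MUB6 had 482 ± 59.7 CPM in EU nascent and 269 ± 38.8 CPM in nuclear (n = 5 each, SD), and fractional counts in 4 libraries. GOS2 stood 0.939 from elfa2 and 1.08 from elfa3, farther than the median gene. These distances include the group difference on which the genes were chosen, so nothing is read from them.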

How the data were processed

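Libraries were directional, carried unique molecular identifiers and came from nuclear RNA cleared of ribosomal RNA, per the labels' protocols. Tools listed in the submitters' processing notes, without role or order, include HTSeq, UMI-tools, STAR 2.7.10b and Trimmomatic 0.36 and 0.39. The genome build, annotation release and strand setting are not given in the sources used here. Judging from the values alone, the deposited numbers are expected counts, with no normalization by the authors: most are whole (within 1e-06) and the rest simple fractions. The table of the series and the 10 library files differed at 0 values. No mock pulldown without EU was analysed here.

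Counts were rounded and tested with edgeR 4.0.16 (R 4.3.3): filterByExpr, TMM scaling, quasi-likelihood F test and Benjamini-Hochberg adjustment at 0.05 over 21048 genes. The SE is the log2 fold change divided by the square root of F. The test was checked on simulated counts, in which few genes changed and as many rose as fell. That check does not cover the scaling of data in which many genes change. DESeq2 1.42.0, limma-voom (limma 3.58.1), other scalings and filters, the whole part of the counts, a replicate block and leaving out each library were alternatives. Summing genes, leaving out replicates 1 and 3, and the spread without each library were added after the data were seen. Figures and summaries used Python 3.11.15. The p-values measure the spread between these libraries.

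Same-numbered libraries deviated together, with correlations across genes of 0.20, 0.22, 0.18, 0.19 and 0.16 for replicate numbers 1 to 5. Between libraries with unlike numbers the highest correlation was 0.11, for EU nascent replicate 4 with nuclear replicate 2. The pairing is taken from these values and not from the labels.

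Names come from the RefSeq gene table of Zm-B73-REFERENCE-NAM-5.0, which matched 48127 of 48174 identifiers (99.9%). The 3 genes and the lists were chosen with earlier results of these data known. Named were the 3 genes, their neighbours, all named translation factor genes, the 2 most extreme ribosomal protein genes each way and the 3 nearest profiles. Paralogs were taken by name, and protein and promoter sequences were not used here. Entries named plt1 and plt2 had 0 counts and were not read as markers, since in maize these symbols may stand for other genes. The only root hair marker found, rth3, had 45.5 CPM in EU nascent and 36.6 CPM in nuclear.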

Additional observations from a re-analysis of the deposited data

Results flagged for a closer look

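Within groups of 5 libraries, 38 sets of values were checked for a library far from the others, and 4 were found, where chance marks about 1 in 20. The GOS2 to elfa2 count ratio was 1.91 in EU nascent replicate 3, below the other EU nascent libraries. LOC100381808, whose span holds GOS2, had 125 CPM in nuclear replicate 4, below the others of its group. The gene eif5a had 69.2 CPM in nuclear replicate 1, the library with the fewest counts, below the others of its group. The gene eIFiso4E had 34.1 CPM in EU nascent replicate 3, above the others of its group.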

How the results depend on the processing

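The log2 fold changes of elfa2, elfa3 and GOS2 kept their direction under all alternatives run. Leaving out 1 library gave -1.16 to -0.92 for elfa2, -1.40 to -1.20 for elfa3 and 0.74 to 0.91 for GOS2, and the other 9 settings gave -1.20 to -0.87, -1.48 to -1.12 and 0.78 to 0.99. Library totals alone moved the counts of all genes to 7386 higher and 2765 lower and that of ribosomal protein genes higher to 8, and the replicate block moved the last to 5. The sign turned for eif5a (0.069) and LOC100381808 (0.0053) with library totals alone. It turned for eIF5 (0.01) with limma-voom (-0.031), the replicate block (-0.0023) and replicates 1 and 3 left out (-0.076), and leaving out 1 library gave it -0.033 to 0.094. The block changed no other call among the genes named with a test, apart from those of elfa5 and LOC100381808 given above. The cause of these changes was not tested. Depth limits single values most in nuclear replicates 1 and 3, where elfa2, elfa3 and GOS2 had 128 to 336 counts.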
